A study of Homo sapiens with 12 samples.

Results

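The CC chemokines described here are 8 genes of THP1 monocytes (CCL2, CCL3, CCL4, CCL5, CCL7, CCL8, CCL20 and CCL22). They were taken by symbol from the 58735 rows of a table of RNA-sequencing read counts, and all 8 had a single row. THP1 is a monocytic line grown from a human leukaemia. The cells were kept for 24 h in endothelial medium, either alone (mono-culture) or above human umbilical vein endothelial cells (ECs) on a transwell filter with 1 µm pores. The ECs below the filter were control ECs (given only the solvent DMSO), senECs (made senescent with etoposide, a drug that breaks DNA) or EGCG-treated senECs (given etoposide and the green tea catechin epigallocatechin gallate). In every group, mono-culture included, LPS was then added at 100 ng/ml to the recovered THP1 cells, and RNA was taken after 2 h. No group went without LPS, so that the response to LPS itself is not measured here, and all values are levels in stimulated cells. Each group held 3 libraries, which carry the replicate numbers 1, 2 and 3 in mono-culture and with control ECs, and 1, 2 and 5 with senECs and EGCG-treated senECs. The labels do not say whether replicates were separate cultures, so the tests measure the spread between these libraries, which may be technical.

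CC chemokines are small secreted proteins with adjacent cysteines near the start of the chain, and they attract leukocytes through G protein-coupled receptors. In monocytes, LPS is sensed by TLR4 with its co-receptors CD14 and LY96, and the signal runs through MYD88 and TICAM1 to NF-κB and IRF3, which switch on chemokine genes within hours. CCL20 is the ligand of CCR6 on B cells, T helper cells and immature dendritic cells. CCL3, CCL4 and CCL5 attract monocytes and T cells, and CCL3 and CCL5 act on CCR1. CCL2, CCL7 and CCL8 are monocyte chemoattractant proteins that share CCR2. CCL22 is a ligand of CCR4 and is made by macrophages and dendritic cells.

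Of these genes, 6 lie on chromosome 17 (GENCODE release 29, GRCh38), in 2 stretches of CC chemokine genes. CCL2 (ENSG00000108691.9, 34255218 to 34257203, plus strand), CCL7 (ENSG00000108688.11, 34270221 to 34272242, plus strand) and CCL8 (ENSG00000108700.4, 34319036 to 34321402, plus strand) lie in one stretch, with CCL11 between CCL7 and CCL8. CCL5 (ENSG00000271503.5, 35871491 to 35880793, minus strand), CCL3 (ENSG00000277632.1, 36088256 to 36090169, minus strand) and CCL4 (ENSG00000275302.1, 36103590 to 36105621, plus strand) lie in the other. CCL20 (ENSG00000115009.12) is on chromosome 2 (227805739 to 227817564, plus strand) and CCL22 (ENSG00000102962.4) on chromosome 16 (57358772 to 57366190, plus strand). All 8 are annotated as protein coding.

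RefSeq promoters (GRCh38.p14, 250 bases before to 50 after the start) were at hand for 5 of the 8 genes, namely CCL20, CCL22, CCL3, CCL7 and CCL8. The bases before the start are shown for CCL20, the gene with the highest level, for CCL3, an attractant of monocytes and T cells that followed it across libraries, for CCL22, the gene that varied least, and for CCL8, which was almost silent. They run 5′ to 3′ on the strand of the gene. Capitals mark matches to the NF-κB consensus and to TATAAA.
CCL20, chr2:227813592-227813841, plus strand: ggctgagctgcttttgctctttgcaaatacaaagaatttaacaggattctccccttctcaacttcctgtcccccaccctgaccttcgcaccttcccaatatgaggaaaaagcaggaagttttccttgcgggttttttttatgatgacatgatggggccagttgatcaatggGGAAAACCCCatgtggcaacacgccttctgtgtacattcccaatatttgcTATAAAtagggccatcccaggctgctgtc
CCL3, chr17:36090144-36090393, minus strand: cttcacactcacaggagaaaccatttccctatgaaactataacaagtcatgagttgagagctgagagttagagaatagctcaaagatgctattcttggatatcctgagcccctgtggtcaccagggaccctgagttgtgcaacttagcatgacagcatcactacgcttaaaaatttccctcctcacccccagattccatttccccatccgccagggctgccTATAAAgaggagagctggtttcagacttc
CCL22, chr16:57358533-57358782, plus strand: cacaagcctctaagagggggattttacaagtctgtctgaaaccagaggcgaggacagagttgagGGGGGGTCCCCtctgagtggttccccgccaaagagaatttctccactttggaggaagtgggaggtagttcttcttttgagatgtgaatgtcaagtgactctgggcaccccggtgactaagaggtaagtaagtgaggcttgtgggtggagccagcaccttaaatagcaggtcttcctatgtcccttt
CCL8, chr17:34319185-34319434, plus strand: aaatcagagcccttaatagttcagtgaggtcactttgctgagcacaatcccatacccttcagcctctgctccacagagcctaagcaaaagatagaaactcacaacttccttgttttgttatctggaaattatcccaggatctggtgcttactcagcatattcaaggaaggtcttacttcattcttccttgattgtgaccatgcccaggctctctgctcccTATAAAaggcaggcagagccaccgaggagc

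Both strands of the whole windows were searched for 5 motifs. The NF-κB consensus matched in CCL20, on the minus strand at bases -79 to -70 from the start, and in CCL22, where 2 matches that overlap each other begin at base -186. It matched in neither CCL7 nor CCL8 nor any of the 3 windows listed for CCL3, and in 11.3% of all 35116 promoters of the table. TATAAA stood at about the same place in CCL20 (from base -29), CCL3 (-29), CCL7 (-30) and CCL8 (-30) and was not found in CCL22. It is in 11.5% of all promoters. The AP-1 motif TGANTCA (7.71% of all promoters) matched only in CCL7. The C/EBP motif TTGCNNAA (10.5%) and the interferon response core GAAANNGAA (8.11%) each matched only in the first window of CCL3. A match is a run of letters and not a binding site.

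Library totals ran from 15439836 to 22092600 counts. Marker genes of monocytes were present, as 11 of 12 had a mean above 1 CPM (read counts scaled to library size, with TMM factors) in each group. Endothelial markers summed to 26.4 to 32.7 CPM in mono-culture, where no EC was present, and to 28.8 to 38.7 CPM in the co-cultures. Most of this was EGFL7, while TEK and CLDN5 had libraries with no read. The part of EC RNA in the results was not tested. In bulk RNA, a smaller number of responding cells and less RNA per cell cannot be told apart.

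CCL20 was the most abundant of all CC chemokine transcripts, with a mean of 227 FPKM (CPM per kilobase of exon) over the 12 libraries, and no library of another CC chemokine ligand came above its mean. CCL5 (43.4 FPKM) and CCL4 (42.0 FPKM) followed, and their ranges over libraries overlapped almost entirely (28.7 to 71.0 and 16.4 to 93.0 FPKM). CCL3 (11.0 FPKM) and CCL2 (7.89 FPKM) came next and did not separate from each other either (3.83 to 24.2 and 2.58 to 19.9 FPKM). CCL22 stood at 2.86 FPKM. CCL8 (0.111 FPKM) and CCL7 (0.016 FPKM) were near the limit of detection. Exon lengths are unions over annotated transcripts, which cover the whole gene for CCL2 and CCL4 and so lower their FPKM. By CPM, CCL4 stood above CCL5 and the other ranks were the same.

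**Figure D1:**
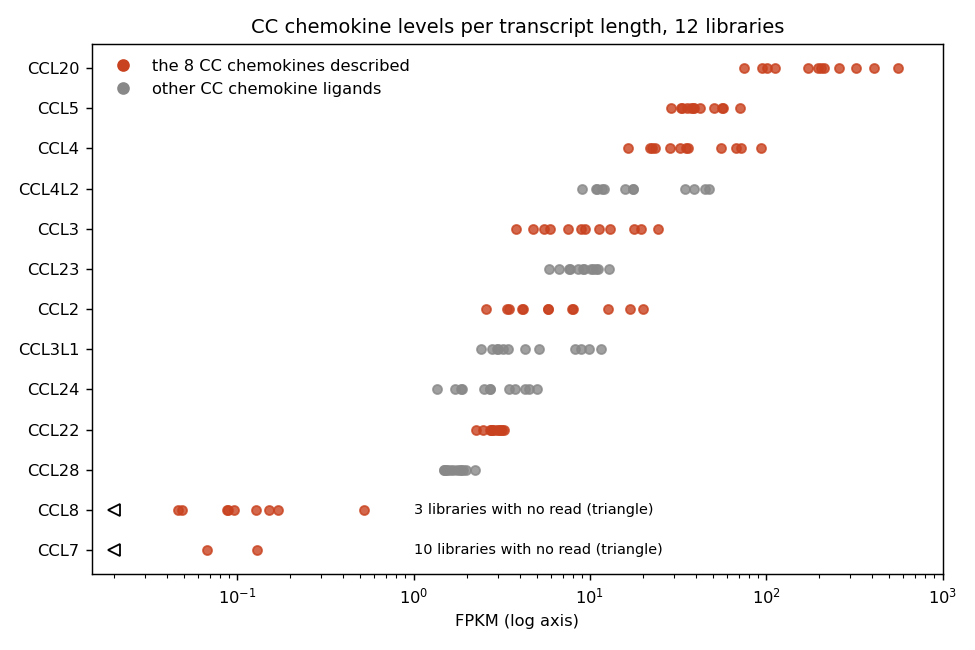
Level of 13 CC chemokine ligands in FPKM (x axis, log scale), 1 point per library, for the 8 genes described here (red) and 5 others with a mean of at least 1 CPM (grey). CCL20 lies highest at 74.4 to 560 FPKM, and triangles mark the 3 libraries without a CCL8 read and the 10 without a CCL7 read.

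Among the 20 other CC ligands listed for comparison, 18 had a row in the table and 5 had a mean of at least 1 CPM. These were CCL4L2 (22.6 FPKM), CCL23 (9.17), CCL3L1 (5.49), CCL24 (2.98) and CCL28 (1.74). CCL11, CCL14 and CCL27 had no read in any library. Of the 10 that were tested, 0 were called in any comparison by edgeR or by DESeq2, with 0 or 1 under an unadjusted p of 0.05. The shares of all genes called ran from 0.0% to 0.309% with edgeR and from 0.0% to 1.34% with DESeq2, so 0 calls among 10 genes say little. CCL4L2 and CCL3L1 are near copies of CCL4 and CCL3. Of the 50-base windows in CCL4 transcripts, 10.14% also occur in CCL4L2, and of those in CCL3 transcripts 4.93% occur in CCL3L1, so reads of these pairs may have been split between the copies and their values are uncertain.

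In mono-culture, CCL20 stood at 119, 315 and 410 CPM in replicates 1, 2 and 3. With control ECs it was 152, 275 and 513 CPM. With senECs it was 178, 325 and 893 CPM in replicates 1, 2 and 5, and with EGCG-treated senECs 161, 339 and 654 CPM. The libraries of each group spread over a 3.38-fold to 5.02-fold range, and every pair of groups overlapped. Group means were 281 ± 149, 313 ± 184, 465 ± 378 and 385 ± 250 CPM (SD, n = 3), in the order mono-culture, control EC, senEC and EGCG-treated senEC. CCL20 alone gave 53.1% to 70.1% of the summed CPM of the 8 genes in a library.

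Of CCL3, CCL4 and CCL5, CCL4 stood at 33.3, 65.8 and 112 CPM in the 3 mono-culture libraries and at 45.7, 70.8 and 137 CPM with control ECs. With senECs it was 47.7, 57.7 and 189 CPM, and with EGCG-treated senECs 44.7, 73.6 and 146 CPM. As for CCL20, the top library of each group was replicate 3 or 5. CCL3 was 5.72, 11.3 and 19.4 CPM in mono-culture and 8.20, 14.1 and 26.5 CPM with control ECs. It was 8.83, 13.2 and 36.1 CPM with senECs and 7.07, 16.9 and 29.03 CPM with EGCG-treated senECs. The order of the 12 libraries was nearly that of CCL4 (Spearman's rho 0.99).

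CCL5 spread less than CCL3 and CCL4. In mono-culture it stood at 49.4, 58.0 and 76.1 CPM, and with control ECs at 43.4, 50.2 and 86.5 CPM. With senECs the 3 libraries gave 56.4, 58.7 and 107 CPM, and with EGCG-treated senECs 53.4, 63.9 and 85.1 CPM. Its highest library (senEC replicate 5) was 2.47 times its lowest (control EC replicate 1), against 5.67 times for CCL4 and 6.32 times for CCL3. Its group means, 61.2 ± 13.6, 60.0 ± 23.2, 74.1 ± 28.8 and 67.5 ± 16.2 CPM (SD, n = 3, same order), differed by less than the spread within groups.

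Of the CCR2 ligands, only CCL2 was well measured. It was 8.14, 6.89 and 16.0 CPM in mono-culture and 6.77, 11.5 and 25.3 CPM with control ECs. With senECs it stood at 8.31, 11.5 and 39.6 CPM, and with EGCG-treated senECs at 5.12, 15.6 and 33.5 CPM. Its highest library held 7.74 times the level of its lowest, a wider ratio than for the other 5 measured genes. CCL8 had 33 reads in all 12 libraries together, 15 of them in control EC replicate 2, and none in replicate 1 of mono-culture, control EC and senEC. CCL7 had 3 reads, 2 in control EC replicate 3 and 1 in senEC replicate 2. A library with no read allows a level of up to 0.132 to 0.191 CPM (3 counts, counting error only), and both genes lay near or under this limit in most libraries, although CCL2 in the same stretch was read in every one.

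CCL22, the CCR4 ligand, behaved differently. It stood at 8.02, 9.31 and 8.92 CPM in mono-culture and at 8.16, 8.13 and 8.503 CPM with control ECs. With senECs it was 7.28, 6.65 and 9.49 CPM, and with EGCG-treated senECs 7.92, 8.83 and 9.21 CPM. The highest library was 1.43 times the lowest.

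**Figure D2:**
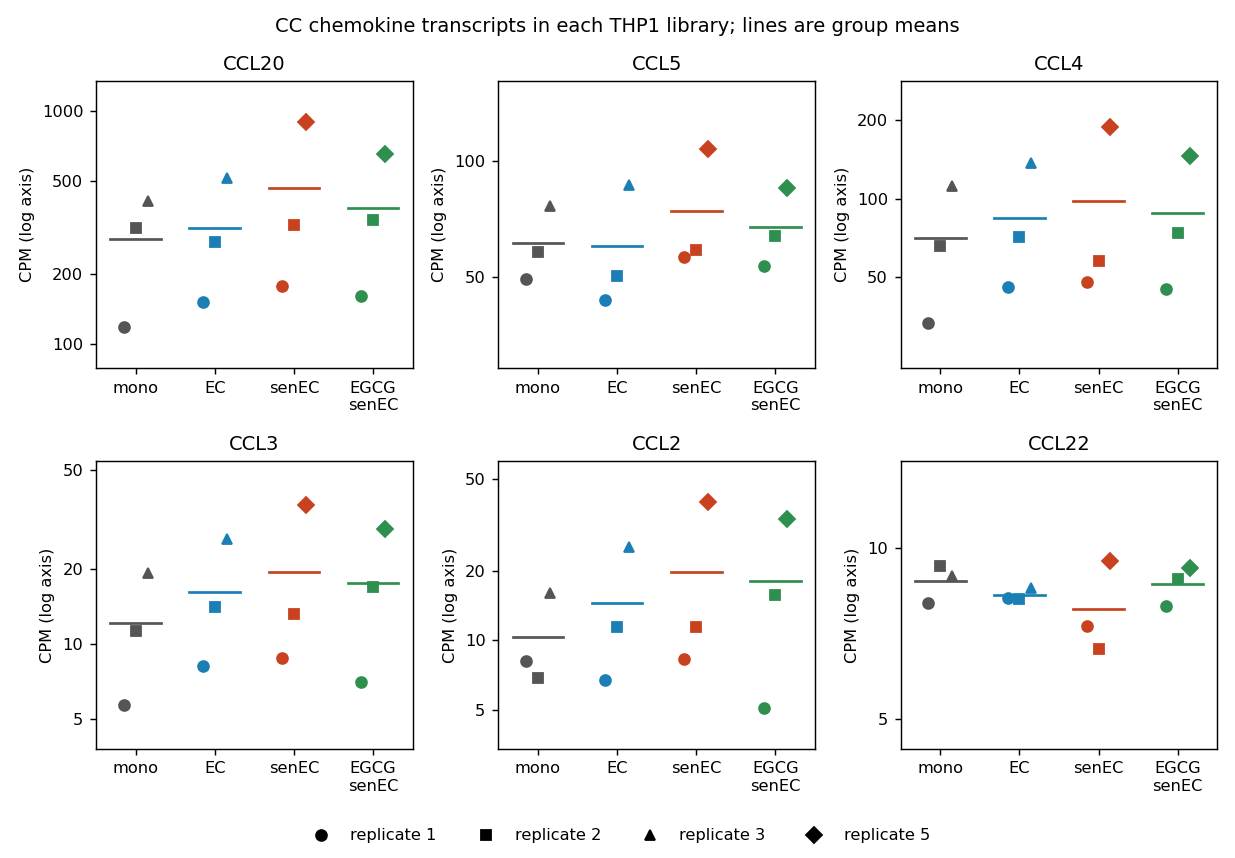
CPM (y axis, log scale) of 6 CC chemokines in each library of the 4 groups, with a line at each group's mean and a symbol for the replicate number. In CCL20, CCL5, CCL4 and CCL3 replicate 1 is the lowest library of all 4 groups and replicate 3 or 5 the highest, while CCL22 stays between 6.65 and 9.49 CPM.

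The question for the co-cultures was whether senescent ECs change the monocyte's response and whether EGCG treatment of these ECs alters it. In the comparison of senECs with control ECs, the fitted difference of CCL20 was 0.57 on the log2 scale (95% interval -0.53 to 1.67, edgeR adjusted p = 0.831). CCL2 gave 0.45 (-0.73 to 1.63), CCL5 0.30 (-0.22 to 0.83), CCL3 0.26 (-0.79 to 1.31), CCL4 0.22 (-0.80 to 1.23) and CCL22 -0.083 (-0.44 to 0.27). None of the 7 tested genes was called, none had an unadjusted p under 0.05, and DESeq2 called none either. Of all 25873 genes tested, 0.0% were called in this fit, so here the result for the chemokines is that of the table as a whole. With a term for the replicate number added (a replicate block), 0 of the chemokines and 0.591% of all genes were called. SenECs and control ECs share only numbers 1 and 2, so libraries numbered 3 and 5 do not compare them directly in that block. CCL7 was under the minimum of 10 reads and was not tested. CCL8 gave -2.05 (-4.90 to 0.79), which rests on the 15 reads of 1 control EC library. The median of the 7 was 0.26, against -0.0066 for all genes. Without senEC replicate 5 the direction turned, to -0.32 for CCL20, -0.55 for CCL2, -0.55 for CCL3, -0.68 for CCL4 and -0.059 for CCL5. Without control EC replicate 1, CCL3 (-0.064) and CCL4 (-0.083) also turned, and CCL22 turned to 0.019 without senEC replicate 2. Each library left out was the highest or lowest of its group for the genes that turned, while the other group kept its own. Whether the turns came from this imbalance was not tested. With every gene that had a read in the edgeR fit, 34767 in all, CCL20 passed (adjusted p = 0.000592), beside 0.328% of all genes.

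EGCG-treated senECs against senECs gave small differences for every measured gene. CCL20 was -0.27 (95% interval -1.37 to 0.83, edgeR adjusted p = 1), CCL4 -0.15 (-1.17 to 0.87), CCL5 -0.13 (-0.66 to 0.39), CCL3 -0.12 (-1.18 to 0.93), CCL2 -0.12 (-1.29 to 1.06) and CCL22 0.15 (-0.21 to 0.51). Here too 0 of 7 were called or had an unadjusted p under 0.05, DESeq2 called 0, and the share called among all genes was 0.0%. The median of the 7 genes was -0.125, against 0.0 for all genes. The intervals leave room for changes of either sign by more than the fitted size. Leaving out senEC replicate 5 turned CCL20 to 0.61, CCL2 to 0.88, CCL3 to 0.69, CCL4 to 0.75 and CCL5 to 0.23, and leaving out EGCG-treated senEC replicate 1 turned the same 5 genes as well, to between 0.015 (CCL5) and 0.33 (CCL2). The direction of this comparison thus turned with a single library. Each library left out was the highest or lowest of its group for these genes, while the other group kept its own. Whether the turn came from this imbalance was not tested. EGCG-treated senECs against control ECs gave between 0.065 (CCL4) and 0.33 (CCL2) for the 6 measured genes, again with 0 of 7 called or under an unadjusted p of 0.05, 0 by DESeq2, and 0.0% of all genes called. For EGCG-treated senECs against senECs and against control ECs, a replicate block called 0.0502% and 0.131% of all genes and 0 chemokines. That block compares EGCG-treated senECs with control ECs directly only in numbers 1 and 2.

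**Figure D3:**
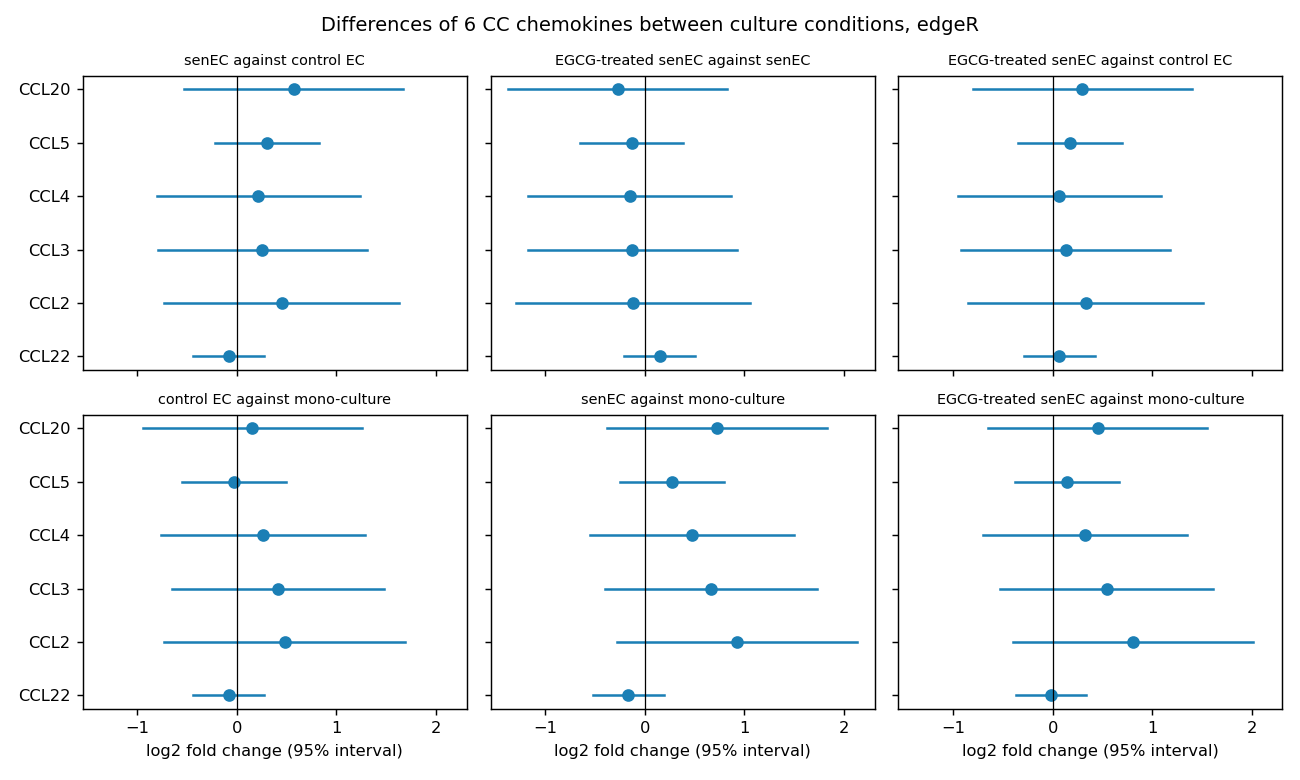
Log2 fold change (x axis, point) with its 95% interval (line) for 6 CC chemokines in the 6 comparisons of culture conditions. Every interval includes 0, and those of CCL22 are the narrowest in every comparison.

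Against mono-culture, the fitted values for CCL2, CCL3, CCL4 and CCL20 lay above 0 in all 3 co-cultures. These comparisons share the mono-culture libraries. With senECs, CCL2 gave 0.93 (95% interval -0.28 to 2.13, edgeR adjusted p = 0.593), CCL20 0.73 (-0.38 to 1.83, adjusted p = 0.66), CCL3 0.67 (-0.40 to 1.73), CCL4 0.48 (-0.55 to 1.5), CCL5 0.27 (-0.25 to 0.80) and CCL22 -0.17 (-0.52 to 0.19). With EGCG-treated senECs, CCL2 gave 0.81 (-0.40 to 2.02) and CCL20 0.45 (-0.65 to 1.55). With control ECs, CCL2 gave 0.48 (-0.73 to 1.69) and CCL20 0.16 (-0.95 to 1.26). With group as the only term, 0 of 7 genes were called in each of the 3 comparisons, 0 had an unadjusted p under 0.05, and DESeq2 called 0. Among all genes 0.309% were called with senECs, 0.213% with EGCG-treated senECs and 0.143% with control ECs by edgeR, and 1.34%, 0.889% and 0.464% by DESeq2. The median of the 7 genes was 0.48, 0.45 and 0.26 in the same order, against -0.015, -0.0013 and 0.0051 for all genes. Without senEC replicate 5, the values with senECs turned to -0.069 for CCL2, -0.16 for CCL20, -0.14 for CCL3, -0.42 for CCL4 and -0.090 for CCL5. That library was the highest of its group for these genes, while mono-culture kept its own highest. The part of this imbalance was not tested. With every gene that had a read in the fit, 4 of the 8 passed in the comparison of senECs with mono-culture (CCL20, CCL2, CCL4 and CCL3) and 2 in that of EGCG-treated senECs. The shares of all genes called there were 1.69% and 1.08%. A replicate block called 1 (CCL20) with senECs, beside 2.74% of all genes. It compares senECs with mono-culture directly only in numbers 1 and 2, as number 5 has no mono-culture library. With numbers 3 and 5 joined the block called 4 with senECs and 3 with EGCG-treated senECs, beside 5.44% and 3.02%.

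The spread between libraries of a group was larger for CCL20, CCL2, CCL4, CCL3 and CCL5 than for most genes. The SD of log2(CPM + 2) within groups, pooled over the 4 groups, was 1.00 for CCL20, 0.93 for CCL2, 0.88 for CCL4, 0.83 for CCL3 and 0.42 for CCL5. The median over 10832 genes with a mean of at least 5 CPM was 0.15. The share of these genes with a smaller SD was 99.9% for CCL20 and CCL2, 99.8% for CCL4 and CCL3, and 97.8% for CCL5. CCL22 had an SD of 0.13, and 35.2% of the genes had a smaller one. For CCL20, the largest difference between group means on this scale was 0.58, less than its SD within groups. IL1B, a gene outside the family, also spread widely, from 131 to 611 CPM in mono-culture, where CCL20 ran from 119 to 410 CPM. A wide spread was thus not particular to CC chemokines.

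**Figure D4:**
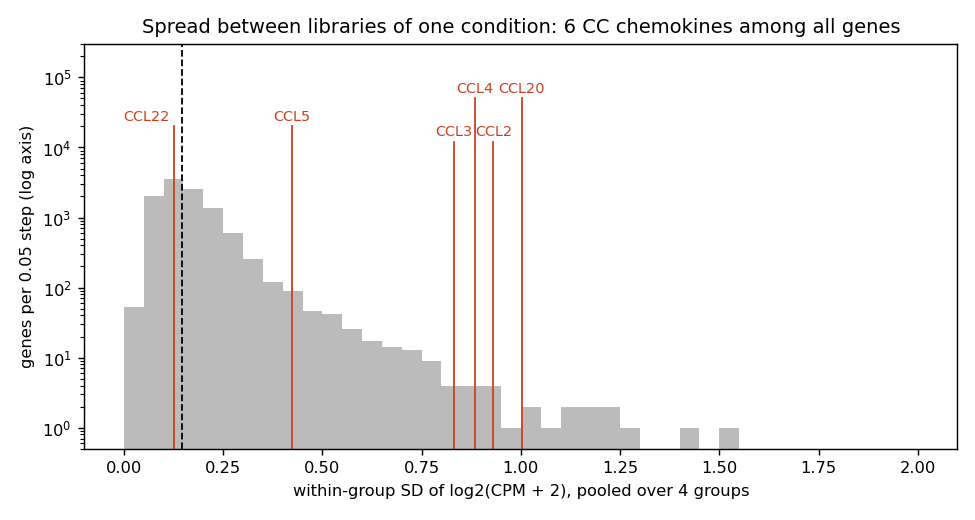
Number of genes (y axis, log scale) by the SD of log2(CPM + 2) within groups, for 10832 genes with a mean of at least 5 CPM, with red lines at 6 CC chemokines and a dashed line at the median of 0.15. CCL3, CCL4, CCL2 and CCL20 lie far in the right tail between 0.83 and 1.00, CCL5 at 0.42 and CCL22 left of the median.

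Libraries with the same replicate number had like levels in all 4 groups. CCL20 was 119 to 178 CPM in the 4 libraries numbered 1, 275 to 339 CPM in those numbered 2 and 410 to 893 CPM in those numbered 3 or 5, with no overlap between the sets. The same held for CCL4 (33.3 to 47.7, 57.7 to 73.6 and 112 to 189 CPM) and CCL3 (5.72 to 8.83, 11.3 to 16.9 and 19.4 to 36.1 CPM). For CCL5 the sets numbered 1 and 2 overlapped (43.4 to 56.4 and 50.2 to 63.9 CPM) and the set numbered 3 or 5 stood above both (76.1 to 107 CPM). CCL2 showed the same picture, with 5.12 to 8.31, 6.89 to 15.6 and 16.0 to 39.6 CPM. The share of all genes that separate by number in this way was not counted. The pattern thus cannot be called particular to the chemokines. The labels do not say what a number marks, so whether equal numbers share a day or a batch is not known. Number 3 occurs only in mono-culture and with control ECs, and number 5 only with senECs and EGCG-treated senECs. A difference between libraries 3 and 5 thus cannot be told apart from one between these conditions. Across all 12 libraries the measured genes other than CCL22 followed each other closely on the log2 scale (Pearson's r of 0.91 to 0.98, n = 12). The libraries fall into sets, and no coefficient was computed within a set. CCL22 gave r between 0.51 and 0.64 with the other 5, and Spearman's rho between 0.54 and 0.73. By deviations from the group means its r was 0.72 to 0.81. Without the 2 libraries farthest from the other gene's median it was 0.20 to 0.48.

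**Figure D5:**
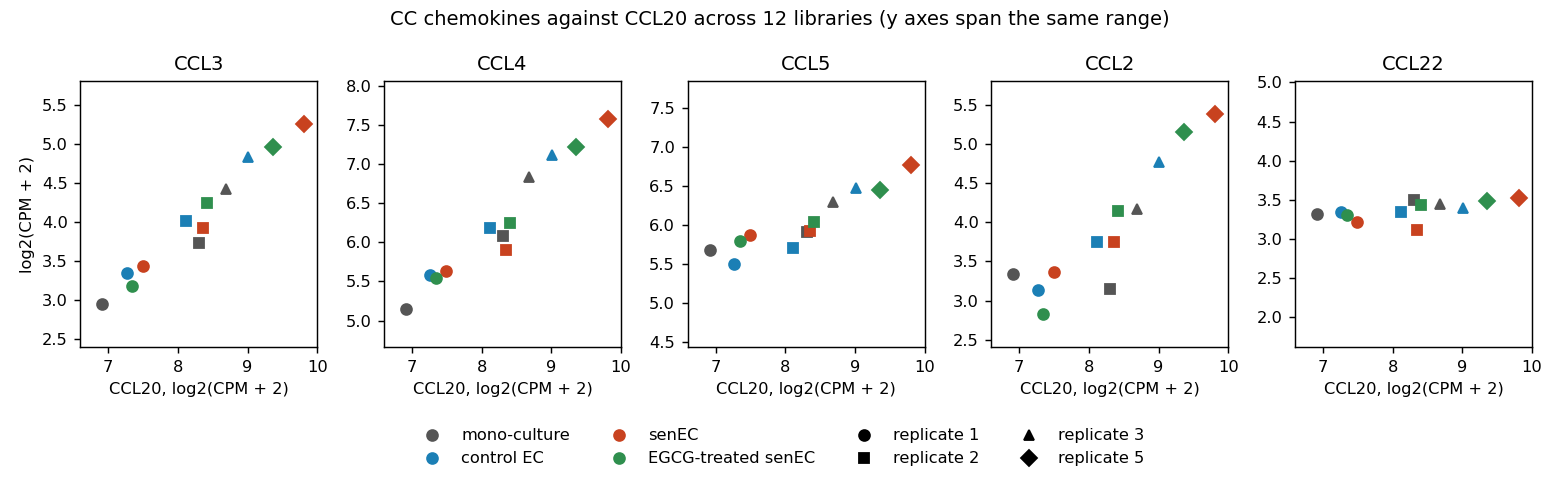
Level of 5 CC chemokines (y axis, log2(CPM + 2)) against CCL20 (x axis, log2(CPM + 2)) in the 12 libraries, with colours for the groups, symbols for the replicate numbers and the same span on each y axis. CCL3, CCL4 and CCL2 lie higher where CCL20 lies higher, CCL5 follows with a shallower slope, and CCL22 stays nearly flat.

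The genes whose pattern was most like that of the 6 measured chemokines (their mean z-score over the 12 libraries) among 10826 genes were IL1B (r = 0.97), the activation marker CD83 (0.97), CCL4L2 (0.97), GPR132, PLEKHF2, CTSC, WTAP, TNFAIP6, CXCL1 and AZIN1-AS1 (0.97, rank 10). IL1B, the precursor of interleukin-1β, ran from 131 to 611 CPM in mono-culture and from 172 to 866 CPM with senECs. By rank correlation 4 of these 10 genes stayed among the first 10, and 3 by deviations from the group means. For single genes, the nearest was TNFAIP6, a secreted hyaluronan-binding protein, for CCL20 (r = 0.996), CD83 for CCL4 (0.99), GRAMD2B for CCL3 (0.99), PROS1 for CCL5 (0.97) and SLC39A8 for CCL2 (0.97). CCL22 was nearest to ITGAE (0.91), followed by PQLC3 and UBL3. These values rest on the same sets of libraries as above.

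Other early LPS-induced genes were looked at as a list. Of the 26 with a mean of at least 5 CPM, 14 had an r above 0.9 with the mean z-score of the chemokines (53.8%), against 1.55% of the 10826 genes, which describes these libraries and is no test. The 3 most abundant were SOD2 (1491 CPM, the larger of 2 rows of this symbol), CXCL8 (490.3 CPM) and IL1B (374 CPM). CXCL8, a neutrophil attractant of the CXC class, stood at 488 ± 181, 451 ± 234, 546 ± 342 and 476 ± 266 CPM (SD, n = 3) in the order mono-culture, control EC, senEC and EGCG-treated senEC. TNF (r = 0.61) and ZFP36 (r = -0.12), named after their values were seen, were less like the chemokines. None of the 35 genes tested from this list was called in any of the 6 comparisons by edgeR, and between 0 and 5 had an unadjusted p under 0.05. DESeq2 called 0 as well. The shares of all genes called, for the same comparisons, ran from 0.0% to 0.309% with edgeR and from 0.0% to 1.34% with DESeq2. Their median difference was 0.32 between senECs and mono-culture, against -0.015 for all genes.

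Of the 34 genes from the LPS receptor to NF-κB and IRF3, 1 was called in 1 comparison, and DESeq2 called 3 there and 1 for EGCG-treated senECs against mono-culture. For senECs against mono-culture 0.309% of all genes were called by edgeR and 1.34% (347 of 25873) by DESeq2, and for EGCG-treated senECs DESeq2 called 0.889% (230 genes). CD14, the LPS co-receptor, was higher with senECs than in mono-culture by 2.09 on the log2 scale (SE 0.42, edgeR adjusted p = 0.0363). It stood at 5.91 to 11.0 CPM in mono-culture, 12.4 to 26.2 CPM with control ECs, 16.6 to 65.7 CPM with senECs and 12.8 to 41.6 CPM with EGCG-treated senECs, so that the 3 mono-culture libraries lay below all others. CD14 was named because it was called, and the share of all genes that separate in this way was not counted. The CD14 call held with DESeq2 (adjusted p = 0.0205). It was lost in 7 of 12 fits that left out a library, namely any mono-culture library, senEC replicate 2, senEC replicate 5, or replicate 2 of either other co-culture, and the difference then ran from 1.44 (without senEC replicate 5, adjusted p = 0.258) to 2.26 (without mono-culture replicate 3, adjusted p = 0.116). The 3 most abundant of this list were TNFAIP3, an inhibitor of NF-κB signalling, NFKBIA, which holds NF-κB in the cytosol, and the kinase IRAK1. TNFAIP3 was 1093 ± 282 CPM in mono-culture and 1156 ± 235 CPM with senECs. NFKBIA was 464 ± 50.9 and 587 ± 146 CPM, and IRAK1 403 ± 26.5 and 517 ± 23.7 CPM (SD, n = 3). Of 31 genes with at least 5 CPM, 2 (NFKB1 and TICAM1) had an r above 0.9 with the chemokines.

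Of the 14 receptors for CC chemokines, 9 were tested and 0 were called in any comparison by edgeR or by DESeq2, with 0 or 1 under an unadjusted p of 0.05 in each. Of all genes, 0.0% to 0.309% were called by edgeR and 0.0% to 1.34% by DESeq2. CCR2, the receptor for CCL2, stood at 155 ± 26.4, 129 ± 12.99, 137 ± 15.6 and 138 ± 23.8 CPM (SD, n = 3) in that order of groups. CCR1, a receptor for CCL3 and CCL5, was 83.7 ± 14.7, 65.4 ± 8.35, 63.2 ± 7.85 and 67.9 ± 8.95 CPM in the same order. CCRL2, an atypical receptor, was 7.86 ± 5.04, 7.64 ± 4.10, 8.58 ± 4.34 and 8.52 ± 4.35 CPM. CCRL2 had an r of 0.94 with the chemokines over the 12 libraries, while CCR1 (-0.68) and CCR2 (-0.71) ran the other way.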

How the data were processed

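The values are raw counts as deposited, from filtered paired reads that the authors had aligned with HISAT2 to hg38 per the labels. The counter and the annotation are not given in the sources used here. All 12 described libraries were used, grouped by the sample titles. The table has 16 columns, of which 4 match no described sample and were not used. The 25873 genes with 10 or more counts in total were fitted with edgeR 4.0.16 in R 4.3.3 (quasi-likelihood F test, TMM, all 12 libraries, group as the only term, two-sided, Benjamini-Hochberg over all genes, called at an adjusted p of 0.05). A standard error is the log2 fold change over the root of F, and the 95% intervals use edgeR's degrees of freedom. The script was tested on simulated data. FPKM is CPM per kilobase of exon in GENCODE release 29, in which all 57169 symbols of the table were found. Likeness is Pearson's r over log2(CPM + 2), with no test, among genes with a mean of at least 5 CPM. DESeq2 1.42.0 was an alternative.

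All 8 chemokines were named with their values. Other CC ligands were named from 1 CPM upwards, and from the other lists the called genes or else the 3 most abundant, with the 10 genes most like the chemokines and those nearest to each. The chemokines, the gene lists and the naming rule were chosen with earlier results of these data known. Replicates of a group differed by more than sampling noise, so none was a second reading of the same library. Whether they came from separate cultures cannot be told from this. Other alternatives were DESeq2's size factors, other count filters, fits of only the libraries compared, replicate blocks and leaving out each library in turn. With 3 libraries per group an exact permutation test of a single value cannot go below 0.10 and was not used.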

Additional observations from a re-analysis of the deposited data

How the results depend on the processing

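Called chemokines stayed at 0 in all 6 comparisons with DESeq2, its size factors or at least 10 counts in every library. The same held with only the 6 libraries compared or a library left out. These fits called 0.0% to 1.34% of all genes, so 0 says little. With every gene that had a count, 1 chemokine was called for senECs against control ECs (0.328% of all genes). Against mono-culture, senECs gave 4 (1.69%) and EGCG-treated senECs 2 (1.08%). The cause was not tested. The replicate numbers were not taken to pair the libraries, since by the deviations from group means over 25873 genes not every same-number pair had an r above 0.1 (10 of 14, range 0.027 to 0.50, against 6 of 40 other pairs, 4 of them numbers 3 with 5). All same-number pairs at or below 0.1 were of number 2 (0.027 to 0.077), while those of number 1 ran from 0.38 to 0.50. The rule therefore does not exclude a pairing. As a hint, 9 of 12 libraries correlated best with one of their own number, and numbers 3 and 5 with each other. A replicate block compares senECs or EGCG-treated senECs with mono-culture or control ECs directly only in numbers 1 and 2. With a replicate block, 1 chemokine was called for senECs against mono-culture (CCL20, 0.42, adjusted p = 0.00327), CCL4 turned to -0.024 for senECs against control ECs, and 469, 709 and 424 genes in all (1.81%, 2.74% and 1.64%) were called for control ECs, senECs and EGCG-treated senECs against mono-culture. In the same order that block called 3, 7 and 4 of the 35 early LPS-induced genes higher and 0, 2 and 3 lower, 1, 5 and 3 of the 34 genes from the LPS receptor higher, and 0, 0 and 0 of the 9 receptors higher and 1, 1 and 0 lower. With the replicate block and numbers 3 and 5 joined, 1 (CCL20, 0.44, adjusted p = 0.00731) was called for senECs against control ECs, 4 for senECs against mono-culture and 3 for EGCG-treated senECs against mono-culture, beside 268, 1407 and 782 genes in all (1.04%, 5.44% and 3.02%). This fit takes numbers 3 and 5 as 1 set, which the labels do not state. The planned comparisons of replicate numbers were tied to a pairing and were not run, nor were their alternatives. Over the 3 comparisons with fold changes, 23 of 216 values turned when a library was left out. Such a fit can leave the groups compared with unlike sets of replicate numbers. For senECs against control ECs, values ran from -0.55 to 1.11 (CCL2), -0.55 to 0.79 (CCL3), -0.68 to 0.75 (CCL4), -0.059 to 0.66 (CCL5), -0.32 to 1.12 (CCL20) and -0.24 to 0.019 (CCL22). For EGCG-treated senECs against senECs they ran from -0.93 to 0.88 (CCL2), -0.69 to 0.69 (CCL3), -0.73 to 0.75 (CCL4), -0.34 to 0.23 (CCL5) and -0.90 to 0.61 (CCL20). For senECs against mono-culture they ran from -0.069 to 1.39 (CCL2), -0.14 to 1.18 (CCL3), -0.42 to 0.98 (CCL4), -0.090 to 0.46 (CCL5) and -0.16 to 1.11 (CCL20). Under the other alternatives 1 of 126 values turned (CCL4, above) and 11 passed the threshold. Of the ranks of level, 6 of 8 were the same by CPM and 8 of 8 with DESeq2's size factors. The 10 most alike genes were the same 10 from 1 CPM upwards. The CD14 call was lost with at least 10 counts in every library (2.051, adjusted p = 0.0779). It passed with the replicate block (1.74) and numbers 3 and 5 joined (1.97). Why adjusted p fell so far was not tested. CCL7 and CCL8 had the lowest counts of the 8.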
